A study of Mus musculus with 16 samples.

Results

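Carriers that move amino acids and peptides across the cell membrane, and carriers of the inner mitochondrial membrane, were followed in the right kidneys of 5 wild-type mice. The genes were chosen by name: a probe counted when the platform annotation gave it 1 symbol beginning with Slc1a, Slc3a, Slc6a, Slc7a, Slc15a, Slc36a, Slc38a or Slc43a (amino acid and peptide group) or with Slc25a (mitochondrial group). This gave 64 genes on 77 probes out of 9669 named genes on 20205 probes, 39 genes in the amino acid and peptide group and 25 in the mitochondrial group. The symbols also bring in relatives with other known cargo, such as the serotonin carrier Slc6a4 and the creatine carrier Slc6a8, and Slc6a19os, which by its symbol is an opposite-strand transcript and not a carrier.

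The animals were male littermates, W1 to W5, on a mixed C57BL/6 and 129Sv background, 88 ± 2 days old, and all were wild type. Total RNA of W1, W2, W3 and W4 was each hybridised against that of W5 on 4 two-colour arrays, 2 with the littermate in channel 1 and 2 with W5 in channel 1, so that 16 arrays were measured and W5 was on all of them. The 4 arrays of a mouse repeat the same RNA, and each mouse is 1 animal, so what the tests below compare is these 5 RNA extracts, and they say nothing of other mice. Array values are log2 ratios, with the sign turned on arrays with W5 in channel 1. Which channel is the numerator is not given in the sources used here, so a positive and a negative ratio lie on opposite sides of W5, but which side means more transcript is not settled.

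Filtered amino acids are taken back by the kidney in the proximal tubule. Carriers of the brush border bring them into the cell, mostly coupled to sodium or protons or in exchange for other amino acids, and exchangers and sodium-coupled carriers of the basolateral membrane connect the cell with the blood. Slc25 carriers pass nucleotides, phosphate, keto acids and amino acids through the inner mitochondrial membrane, which ties the amino acid chemistry of the cytosol to that of the matrix. A probe was tested when W1, W2, W3 and W4 each had 3 or more of their 4 arrays filled, and 54 of the 64 genes had such a probe, 30 amino acid and peptide carriers and 24 mitochondrial carriers. The 10 others were Slc1a5, Slc6a4, Slc6a7, Slc6a8, Slc6a19os, Slc6a20a, Slc7a1, Slc38a1, Slc38a2 and Slc25a37. Ratios hold no expression levels, so genes are not ranked by abundance, and the kidney identity of the samples could not be checked through levels of its markers.

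The first question was which carriers differed among the 5 kidneys. A moderated F test in limma asked whether the 4 ratios to W5 are all 0, with a Benjamini-Hochberg adjustment across the 15715 probes in the test and a call at an adjusted p under 0.05. In the amino acid and peptide group Slc7a7, Slc38a3 and Slc6a18 were called, 3 of 30 genes. In the mitochondrial group Slc25a25 was called, 1 of 24 genes. Over all probes 4.00% were called, and 336 of 8005 named genes represented by 1 probe each, so the mitochondrial share of 4.17% lay near that background. The amino acid and peptide share of 10.0% rests on 3 genes. At an unadjusted p under 0.05, 9 of the 54 carriers passed (16.7%), against 17.9% of all probes. The range of a gene is the highest minus the lowest log2 ratio, counting W5 itself as 0. Its median was 0.29 in the amino acid and peptide group and 0.28 in the mitochondrial group, against 0.24 over all probes, while the median technical spread of a probe (the residual SD of its arrays around the fit) was 0.22, 0.17 and 0.19.

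**Figure D1:**
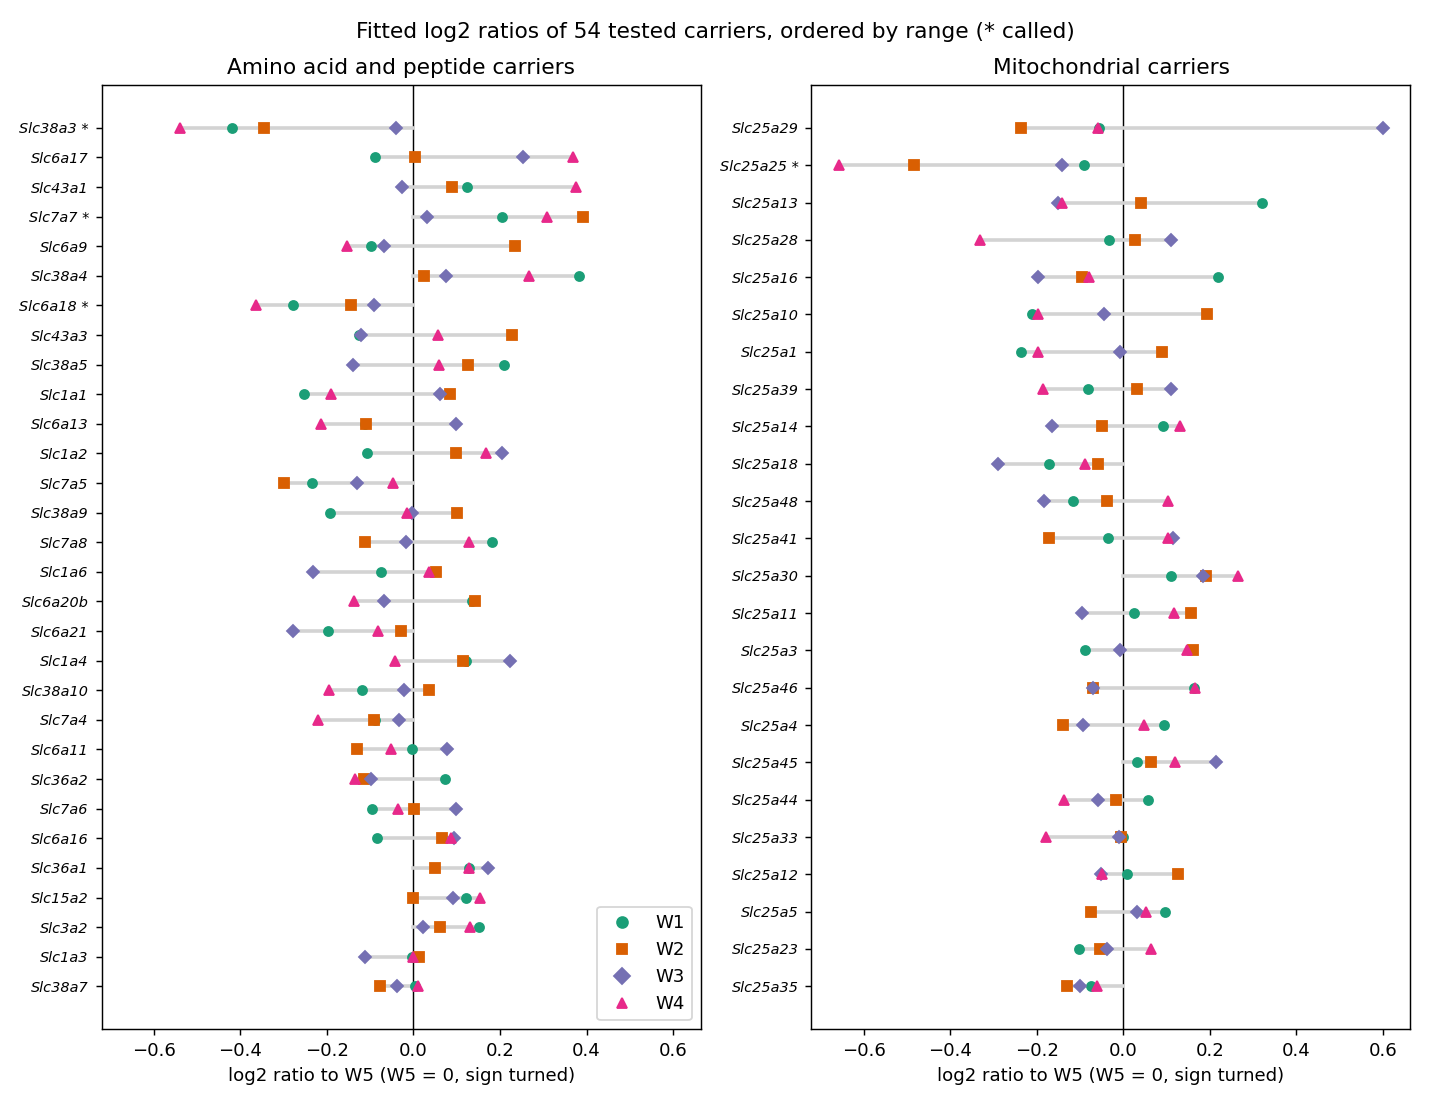
Fitted log2 ratios to W5 (horizontal axis, sign turned) of the 30 amino acid and peptide carriers (left) and the 24 mitochondrial carriers (right) tested. Each symbol is a mouse, the grey bar spans the 5 kidneys with W5 at 0, genes are ordered by range and a star marks an adjusted p under 0.05. Slc38a3, Slc6a18 and Slc25a25 lie on the negative side in all 4 mice and Slc7a7 on the positive side.

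Slc7a7 is the light chain of a basolateral exchanger that releases cationic amino acids to the blood against neutral amino acids and sodium, and its human counterpart is mutated in lysinuric protein intolerance. The 4 arrays of W1 read 0.39, 0.18, 0.28 and -0.03, those of W2 0.32, 0.24, 0.66 and 0.35, those of W3 0.07, 0.04, 0.12 and -0.11 and those of W4 0.48, 0.21, 0.39 and 0.17. All 8 arrays of W2 and W4 lay above 0 and above every array of W3, while W1 overlapped with each of the others. The fitted ratios were 0.21, 0.39, 0.03 and 0.31 in W1 to W4, each ± 0.07 (SE, n = 4 arrays), a range of 1.31-fold (limma adjusted p = 0.00217). This SE, here and below, uses the array spread of the probe pooled over all mice and moderated by limma, not that of each mouse. Taken in pairs, W2 and W4 were set apart from W5 (adjusted p = 0.00487 and 0.0285), where 2.34% and 2.01% of all probes were called. For W1 and W3, where 0.795% and 0.592% of all probes were called, no carrier was called against W5. The difference between W2 and W3 was 0.36 in size and was not called (adjusted p = 0.223).

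Slc3a2, the heavy chain that carries Slc7a7 and other light chains to the membrane, lay at 0.15, 0.06, 0.02 and 0.13 in W1 to W4, also on the positive side, with a range of 0.15 that was not called (adjusted p = 0.477). The other light chains measured were not called either. The large neutral amino acid exchanger Slc7a8, the basolateral partner for many of the amino acids absorbed in the early tubule, lay at 0.18, -0.11, -0.02 and 0.13 (adjusted p = 0.699). Slc7a5, its relative of growing and activated cells, lay on the negative side in all 4 mice at -0.23, -0.30, -0.13 and -0.05 (adjusted p = 0.325). Slc7a6, the closest relative of Slc7a7 in function, had ratios between -0.10 and 0.10 (adjusted p = 0.849). Its other probe lay at 0.07, -0.11, 0.15 and 0.03 (limma adjusted p = 0.625), on the same side as the first in 1 of 4 mice. Slc7a7 thus was the only Slc7a gene called among the 5 tested in this family, and whether it differed from its relatives was not tested.

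Slc38a3 is a sodium-coupled glutamine carrier, known in the kidney from the basolateral membrane of the late proximal tubule, where it brings in glutamine for ammonia production. The 4 arrays of W1 read -0.57, 0.24, -0.76 and -0.59, those of W2 -0.29, -0.59, -0.06 and -0.44, those of W3 -0.12, 0.10, -0.03 and -0.13 and those of W4 -0.92, -0.43, -0.58 and -0.23. All 8 arrays of W2 and W4 lay below 0, and in W1 array 2 lay on the other side from the remaining 3. The fitted ratios were -0.42, -0.35, -0.04 and -0.54 ± 0.13 (SE, n = 4 arrays), with a range of 1.45-fold and an adjusted p of 0.0185. In pairs, W4 was set apart from W5 (adjusted p = 0.0364). This call depended on 1 array, since the adjusted p was 0.0507 without array 1 of W4, which held the lowest value, and 0.116 without mouse W4.

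Slc6a18 is a brush border carrier of glycine and other neutral amino acids, known from the late proximal tubule. The 4 arrays of W1 read -0.29, -0.37, -0.17 and -0.29, those of W2 0.02, -0.13, -0.34 and -0.12, those of W3 0.07, -0.19, 0.08 and -0.32 and those of W4 -0.48, -0.29, -0.26 and -0.43. All 8 arrays of W1 and W4 lay below 0, while W2 and W3 had arrays on both sides. The fitted ratios were -0.28, -0.14, -0.09 and -0.36 ± 0.08 (SE, n = 4 arrays), a range of 1.29-fold (limma adjusted p = 0.0127). W4 was set apart from W5 (adjusted p = 0.0202). The call was lost without mouse W1 (adjusted p = 0.0954) and without mouse W4 (adjusted p = 0.125).

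Slc25a25 is a calcium-sensitive carrier that exchanges ATP-magnesium for phosphate and so sets the adenine nucleotide pool of the matrix. The 4 arrays of W1 read 0.07, -0.03, -0.06 and -0.34, those of W2 -0.07, -0.85, 0.06 and -1.08, those of W3 0.04, -0.21, 0.19 and -0.59 and those of W4 -0.82, -0.67, -0.50 and -0.64. In W4 all arrays lay far below 0, whereas in W2 the pair with W5 in channel 1 (arrays 2 and 4) held the difference and the pair with W2 in channel 1 lay near 0. The fitted ratios were -0.09, -0.48, -0.14 and -0.66 ± 0.12 (SE, n = 4 arrays), a range of 1.58-fold (limma adjusted p = 0.00519). With both orientations together, the SD of the 4 arrays was 0.18, 0.56, 0.34 and 0.13 in W1 to W4. W4 and W2 were called against W5 (adjusted p = 0.00633 and 0.0398). The probe also had a called channel term of 0.21 (limma adjusted p = 0.0329), and this term was called at 12.5% of all probes. The channel term is a shift between the orientations, fitted as 1 value for all mice. The split was widest in W2 and ran the same way in W3 (0.04 and 0.19 against -0.21 and -0.59), while in W1 the orientations overlapped. It was not seen in W4, whose arrays read -0.82 and -0.50 against -0.67 and -0.64. Without mouse W4 the adjusted p of Slc25a25 was 0.0704.

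**Figure D2:**
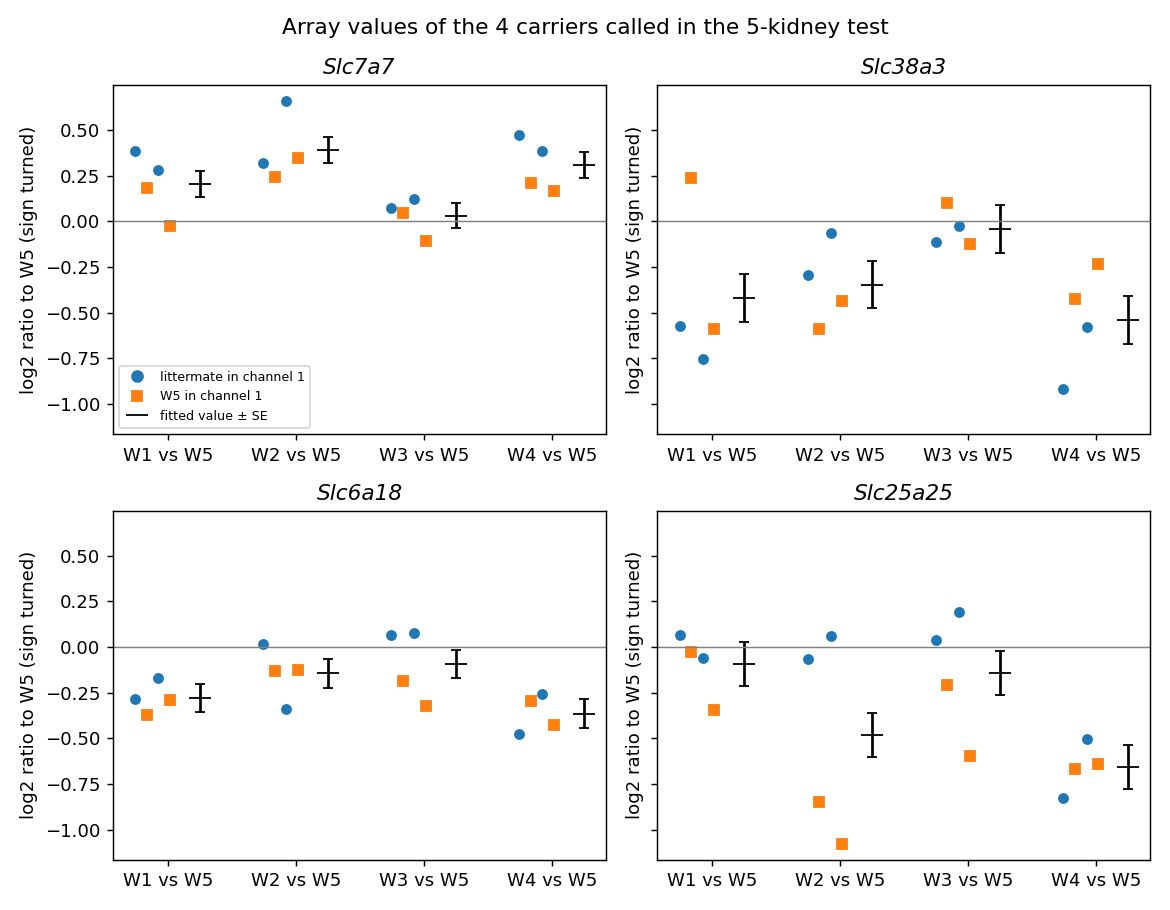
Array values (log2 ratio to W5, sign turned) of Slc7a7, Slc38a3, Slc6a18 and Slc25a25 in W1 to W4. Circles are arrays with the littermate in channel 1 and squares are arrays with W5 in channel 1. The black bars are fitted values ± SE, which uses the array spread pooled over all mice. The W2 arrays of Slc25a25 fall into -0.07 and 0.06 in 1 orientation and -0.85 and -1.08 in the other.

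Slc7a7 and Slc25a25 were the carriers called against W5 in both W2 and W4, on opposite sides, and their promoters are shown as the regulatory sequence of the members with the smallest adjusted p in each group. RefSeq windows around the start of transcription were matched by symbol for these 2 of the 4 called genes, with 5 starts listed for Slc7a7 and 3 for Slc25a25, and the start farthest upstream is printed, 5′ to 3′ on the minus strand of GRCm38.p6. Slc38a3 and Slc6a18 had no entry. Capitals mark matches on either strand to the CCAAT box (CCAAT), the GC box (GGGCGG), the TATA box (TATAAA), the short core of the cyclic AMP response element (TGACG), the amino acid response element core (TGATGNAA) and the E-box (CACGTG); no 2 marked matches overlap.
Slc7a7, chr14:54417895-54418194: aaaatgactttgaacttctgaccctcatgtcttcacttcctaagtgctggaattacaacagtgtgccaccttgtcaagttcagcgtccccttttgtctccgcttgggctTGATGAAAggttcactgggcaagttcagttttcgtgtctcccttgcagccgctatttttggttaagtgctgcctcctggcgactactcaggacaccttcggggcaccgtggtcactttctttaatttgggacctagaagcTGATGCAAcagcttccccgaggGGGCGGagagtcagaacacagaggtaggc
Slc25a25, chr2:32451421-32451720: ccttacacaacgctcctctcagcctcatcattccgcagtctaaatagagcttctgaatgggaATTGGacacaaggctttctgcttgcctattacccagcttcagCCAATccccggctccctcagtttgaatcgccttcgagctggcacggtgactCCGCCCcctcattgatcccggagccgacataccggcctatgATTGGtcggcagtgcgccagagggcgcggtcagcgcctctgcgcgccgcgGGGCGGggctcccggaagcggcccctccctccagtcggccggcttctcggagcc

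The Slc7a7 window held the amino acid response element core at positions -141 and -1 from the start, letters found in 3.97% of 32851 promoter windows, and a GC box at position 22. The Slc25a25 window held the CCAAT box at -188, -146 and -54 and the GC box at -95 and -4, found in 37.4% and 35.7% of windows. TATA box letters (13.6% of windows), TGACG (20.8%) and CACGTG (7.15%) were not in either window. A match describes the letters only, and binding was not measured.

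The remaining 27 amino acid and peptide carriers were not called, with ranges up to 0.46 and adjusted p-values from 0.148. Slc6a13, which carries GABA and related osmolytes and is known from the basolateral membrane of the proximal tubule, came nearest to a call. It lay at -0.11, -0.11, 0.10 and -0.21 in W1 to W4 with the smallest technical spread of the group, 0.0895. Of the other Slc6a genes, Slc6a17, a vesicular carrier of neutral amino acids known from neurons, had the largest range at 0.46, with W4 at 0.37 ± 0.15 and W3 at 0.25 (adjusted p = 0.382). The glycine carrier Slc6a9 ranged over 0.39 with W2 at 0.24 on the opposite side from W1, W3 and W4 (adjusted p = 0.401). Slc6a20b ranged over 0.28, with W1 and W2 at 0.13 and 0.14 and W3 and W4 at -0.07 and -0.14 (adjusted p = 0.439).

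Glutamate and aspartate enter the proximal tubule through Slc1a1. Its ratios were -0.25, 0.08, 0.06 and -0.19, a range of 0.34 that was not called (adjusted p = 0.256), and its other probe ranged over 0.14. Slc1a2, best known from astrocytes, ranged over 0.31 with a technical spread of 0.42 (adjusted p = 0.794), and no Slc1a gene of the 5 tested was called. Among the proton-coupled carriers, Slc36a1 lay on the positive side in all mice between 0.05 and 0.17, and Slc36a2, the glycine and proline carrier of the brush border, between -0.13 and 0.07 (adjusted p = 0.728 and 0.629). The peptide carrier Slc15a2, which recovers di- and tripeptides in the late proximal tubule, had a range of 0.15 (adjusted p = 0.442). Its SE of 0.08 per mouse was small beside the group's median of 0.11.

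Within Slc38a, the glutamine and system A family, 5 other genes were tested and none was called. Slc38a4 had array noise of 0.45 and a range of 0.38, with W1 at 0.38 ± 0.19 (adjusted p = 0.515). Slc38a7 had the smallest range of all 54 carriers, 0.09. The branched-chain amino acid carrier Slc43a1 ranged over 0.40 with W4 at 0.38 ± 0.15 (adjusted p = 0.465), and Slc43a3, a relative known for nucleobases, over 0.35 (adjusted p = 0.497). Over the group, 4 of 30 carriers lay on the positive side in all 4 mice (13.3%), 5 on the negative side (16.7%) and 21 on both, against 10.2%, 11.1% and 78.7% of all probes. The amino acid and peptide carriers thus lay on either side of W5 without a common direction.

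Among the 23 mitochondrial carriers that were not called, Slc25a13 came nearest. It is citrin, an exchanger of matrix aspartate for cytosolic glutamate in the malate-aspartate shuttle. The 4 arrays of W1 read 0.30, 0.38, 0.03 and 0.57, those of W2 -0.04, 0.09, -0.15 and 0.26, those of W3 -0.09, 0.04, -0.49 and -0.06 and those of W4 -0.42, 0.04, -0.22 and 0.02. W1 stood apart with all 4 arrays above 0, though its array 3 fell within the other mice. The fitted ratios were 0.32, 0.04, -0.15 and -0.14 ± 0.08 (SE, n = 4 arrays), a range of 1.39-fold (limma adjusted p = 0.0615). A second Slc25a13 probe gave 0.29 in W1 and between -0.07 and 0.08 in the other mice (adjusted p = 0.195), so the W1 value was found by both probes. The probes lay on the same side in 2 of 4 mice, with W3 at -0.15 and 0.08. Each had a called channel term of -0.15 (limma adjusted p = 0.0188 and 0.0268). For the first probe the 5-kidney adjusted p was under 0.05 in 5 of 28 alternative settings, between 0.0207 and 0.0449. Array weights and a common spread of arrays were among them. Slc25a12, the paralog of the same shuttle that dominates in heart and brain, had ratios between -0.05 and 0.13 (adjusted p = 0.715).

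Slc25a29, a mitochondrial carrier of basic amino acids, had the largest range of all 54 carriers, 0.84, and was not called (adjusted p = 0.464). Its ratios rested on 14 arrays with a technical spread of 0.52, the largest of the mitochondrial group, and 1.27 on array 4 of W3 and 0.97 on array 1 of W4 stood against -0.58 and -0.44 on arrays 2 and 3 of W4. The range of a carrier is thus read against its technical spread: Slc7a7 was called at a range of 0.39 with a spread of 0.10.

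**Figure D3:**
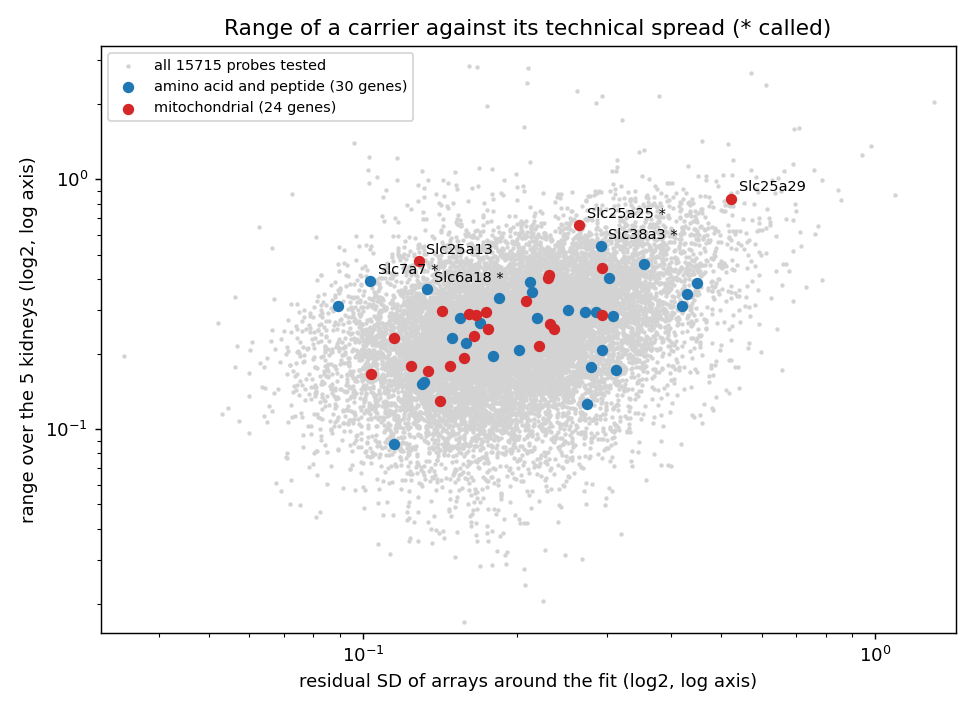
Range over the 5 kidneys (vertical, log2, logarithmic axis) against the residual SD of the arrays (horizontal, log2, logarithmic axis) for all 15715 probes tested (grey), the 30 amino acid and peptide carriers (blue) and the 24 mitochondrial carriers (red). The 4 called carriers carry a star; Slc25a29 has the largest range, 0.84, at a spread of 0.52 and is not called.

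The ADP/ATP carriers Slc25a4 and Slc25a5, which export the ATP made in the matrix, ranged over 0.23 and 0.17 (adjusted p = 0.469 and 0.808), and the phosphate carrier Slc25a3 over 0.25 (adjusted p = 0.491). Among carriers that link the citric acid cycle to the cytosol, the range was 0.40 for the dicarboxylate carrier Slc25a10, 0.33 for the citrate carrier Slc25a1 and 0.25 for the oxoglutarate carrier Slc25a11. None of these was called (adjusted p = 0.327, 0.337 and 0.692). Slc25a1 and Slc25a10 shared an order, with W1 and W4 at -0.24 and -0.20 for Slc25a1 and at -0.21 and -0.20 for Slc25a10, and W2 at 0.09 and 0.19. No pair of mice was called for either gene, and whether the genes vary together was not tested. In W4, array 2 read 0.34 for Slc25a1 (others -0.43 to -0.31), and array 4 read -0.64 for Slc25a10 (others -0.13 to 0.04).

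The iron importer Slc25a28 ranged over 0.44 with W4 at -0.33 ± 0.13 (adjusted p = 0.464), and Slc25a39, needed for mitochondrial glutathione, over 0.30 (adjusted p = 0.414). Slc25a30, a carrier first described in kidney mitochondria, lay on the positive side in all mice at 0.11, 0.19, 0.18 and 0.26 (adjusted p = 0.248). It had the largest channel term of the tested carriers in size, -0.28 (adjusted p = 0.00588). The glutamate carrier Slc25a18 lay on the negative side at -0.17, -0.06, -0.29 and -0.09 (adjusted p = 0.171). Channel terms were called in 7 of the 54 carriers (13.0%, against 12.5% of all probes), 5 of them mitochondrial.

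In 8 carriers a second probe could be tested, and in none of them was either probe called. The called carriers were not among these, so each call rests on a single probe. The probes of Slc25a33, a pyrimidine nucleotide carrier, agreed best, with W4 at -0.18 and -0.23 and a largest difference of 0.05 in any mouse. Those of Slc25a4 lay on the same side in all 4 mice and differed by at most 0.12. Slc25a23, another ATP-magnesium carrier, disagreed most. Its W4 value was 0.06 by the representing probe and 0.66 by the other, whose arrays of W4 read 0.13, 0.47, 1.87 and 0.15, so array 3 held the difference. The probes of the remaining genes differed by 0.16 to 0.24 in the mouse of their largest difference. They lay on the same side of W5 in 1 of 4 mice for Slc7a6 and in 2 for Slc25a46 and Slc25a13. For Slc1a1 this held in 3 mice and for Slc25a39 in all 4.

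**Figure D4:**
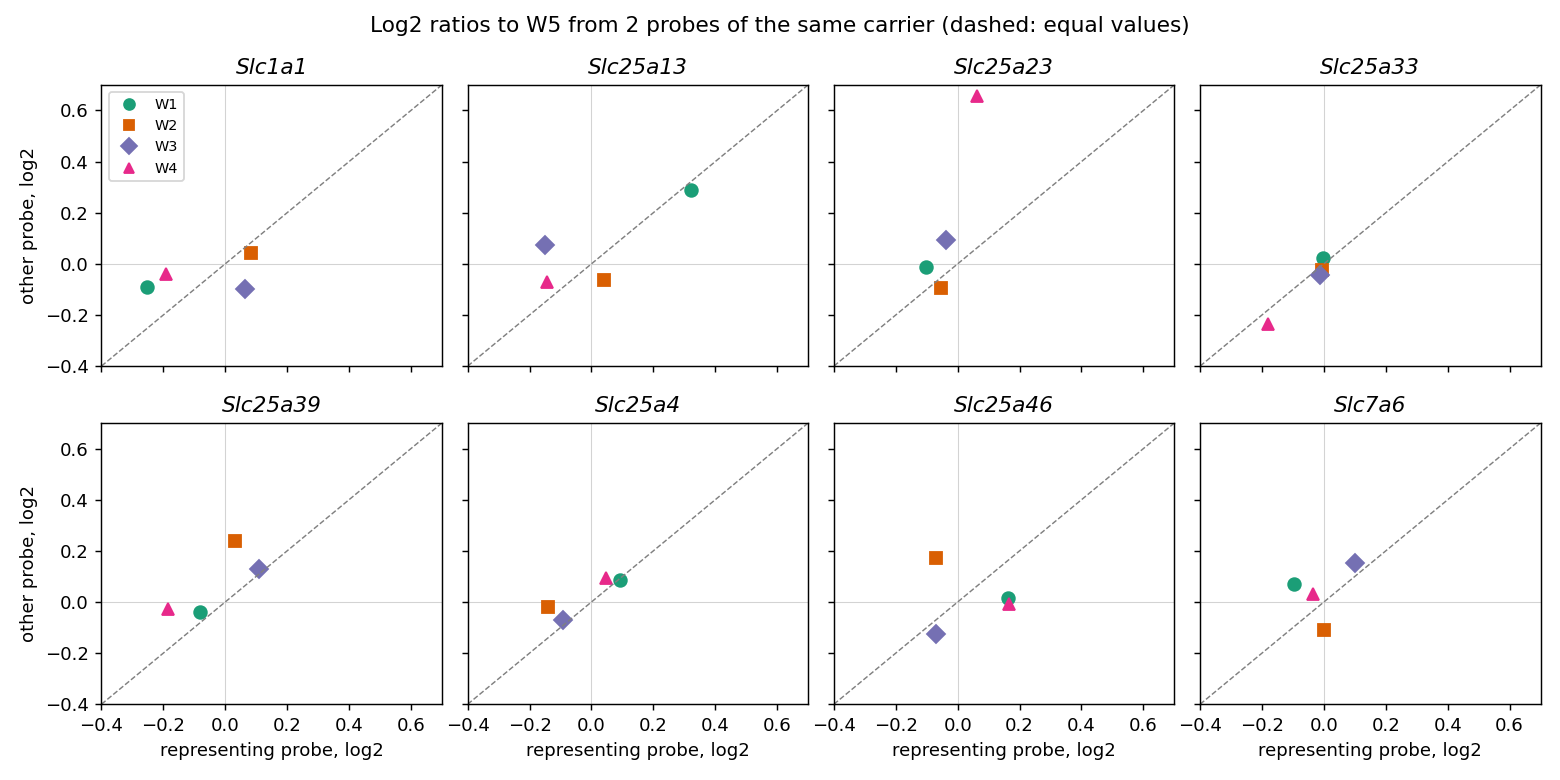
Log2 ratios to W5 (sign turned) by the representing probe (horizontal) and the other probe (vertical) for the 8 carriers with 2 tested probes; symbols are mice and the dashed line marks equal values. W4 of Slc25a23 lies farthest from the line (0.06 against 0.66), and W1 of Slc25a13 lies near it (0.32 against 0.29).

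The second question left W5 out and compared W1 to W4 with each other. The limma F test called none of the 54 carriers, against 0.700% of all probes, and 3 amino acid and peptide and 2 mitochondrial carriers had an unadjusted p under 0.05 (9.26%, against 11.1% of all probes). Slc25a13 had the smallest adjusted p, 0.111, with W1 0.47 from W3. Slc25a25 followed with 0.272 and Slc7a7 with 0.307. No carrier was called in any of the 6 pairs among these mice, in which 0.159% to 0.299% of all probes were called.

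The third question set W5 against the mean of W1 to W4, each mouse counting once, and leaves out the spread of W5 itself. The largest mean differences were -0.34 ± 0.27 for Slc25a25, -0.34 ± 0.21 for Slc38a3, 0.24 ± 0.16 for Slc7a7 and -0.22 ± 0.12 for Slc6a18 (SD, n = 4 mice), each on the same side in 4 of 4 mice. Their limma adjusted p-values were 0.149, 0.107, 0.169 and 0.158. None of the 54 carriers was called, against 0.286% of all probes, and 10 had an unadjusted p under 0.05 (18.5%, against 13.4% of all probes). Slc38a3 was called without mouse W3 (adjusted p = 0.0422). A fit to the 16 single arrays with mouse as random block, which treats repeat arrays almost as replicates, called these 4 genes (adjusted p from 0.00668 to 0.0191).

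Enzymes that work on the cargo of these carriers were set beside them. Of 23 amino acid enzymes tested, 6 were called in the 5-kidney test, with a median range of 0.33. Acy1, which frees amino acids from their N-acetyl forms, lay at -0.08, -0.99, 0.00 and -0.53 in W1 to W4, and Gldc, of the glycine cleavage system, at -0.09, -0.59, 0.10 and -0.15. Both were also called among W1 to W4 (adjusted p = 3.00e-04 for Acy1 and 0.0230 for Gldc). Shmt1, the cytosolic serine hydroxymethyltransferase, lay at 0.69, 0.37, 0.25 and 0.46 and was called against W5 as well (adjusted p = 0.0462). Ass1 of arginine synthesis, Cndp2, a dipeptidase, and Psat1 of serine synthesis had ranges of 0.33, 0.34 and 0.59 and adjusted p-values of 0.0492, 0.0402 and 0.0474, and the other Cndp2 probe was not called (adjusted p = 0.0772). Ass1 lay at 0.23, 0.33, 0.01 and 0.20 in W1 to W4.

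Glutamine enzymes beside Slc38a3 were not called. Glul, glutamine synthetase, lay at -0.03, -0.33, -0.15 and -0.23 (adjusted p = 0.0926), and glutamate dehydrogenase Glud1 ranged over 0.15. Of 9 transporter partners and brush border proteins 2 were called: the dipeptidase Dpep1 at 0.17, 0.36, 0.14 and 0.47, and the meprin subunit Mep1b at -0.17, -0.10, -0.31 and -0.29 (adjusted p = 0.00589 and 0.0268). Of 15 genes of the amino acid deprivation response only Psat1 was called, and Atf4 and Asns lay between -0.26 and 0.18. None of 17 enzymes on either side of the mitochondrial carriers was called, with a median range of 0.21, and none of 5 other mitochondrial transport genes, with a median range of 0.18. These counts stand beside the 4.00% of all probes called, and some genes are in more than 1 list.

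Cell type markers were examined beside the carriers. Of 53 markers listed for 10 cell types, 26 were tested and 12 were called, where 4.00% of all probes were called. The lists were chosen with earlier results of these data known, so this count is no measure of cell composition. In the S3 segment of the proximal tubule, where Slc6a18 and Slc38a3 are known to act, 3 of 5 tested markers were called, all on the negative side or near 0. Slc5a1 lay at -0.26, -0.43, -0.19 and -0.34, Gramd1b at -0.31, -0.18, -0.21 and -0.46, and Slc22a7 at -0.05, -0.53, 0.02 and -0.50. The other S3 markers tested were not called and lay on both sides of W5. Cyp7b1 was at 0.03, -0.13, -0.02 and -0.15, and Acy3 at -0.10, -0.15, 0.06 and -0.36 (limma adjusted p = 0.463 and 0.114). The late proximal tubule carrier Slc15a2, not called, lay at 0.12, -0.0009, 0.09 and 0.15. Of the S1 and S2 markers, 1 of 3 tested was called, Ass1, whose values stand above. Lrp2 lay at 0.16, 0.16, -0.05 and 0.07, and Cubn at 0.07, 0.07, -0.24 and -0.07.

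Markers of cells outside the tubule were called in 3 of 5 lists, each with 2 or 4 genes tested. Both endothelial genes tested were called, Esm1 at 0.14, 0.54, 0.04 and 0.74 and Emcn at 0.03, 0.51, 0.04 and 0.59 in W1 to W4. Of 2 glomerular genes, Podxl was called at 0.40, 0.68, 0.04 and 0.47, while Synpo lay on the other side of W5 in all mice at -0.24, -0.05, -0.11 and -0.15 and was not called (adjusted p = 0.436). Both adipocyte genes were called and lay on the negative side in all 4 mice, Fabp4 at -0.47, -0.67, -0.64 and -0.31 and Cidec at -0.37, -0.36, -0.68 and -0.85. None of 4 leukocyte and 2 red blood cell markers was called. In the collecting duct 3 of 4 tested markers were called. Aqp2 lay at -0.36, 0.05, -0.13 and -0.54 (limma adjusted p = 0.00879), and Foxi1 and Slc26a4 lay on opposite sides. Atp6v1g3 was not called (limma adjusted p = 0.404). In whole kidney RNA, fewer cells of a type and less RNA per cell cannot be told apart, and the part of these markers in the values of the carriers was not tested.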

How the data were processed

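Each deposited value is a log2 ratio between both channels. Per the labels, the authors subtracted background from mean spot intensities and normalised them to a median ratio of 1. That the logs are to base 2 follows from the values: once the most frequent value of an array was taken off, 1.48% to 4.90% of values matched, to 2e-06, the log2 of a quotient of whole numbers not above 12, against at most 0.128% for other bases. The sources used here do not give the dyes, the numerator or the filter that left cells empty. Arrays held values for 80.2% to 91.1% of probes, and for arrays the number of hybridisations limits the precision.

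The sign was turned where W5 was in channel 1. The limma package (3.58.1, R 4.3.3) fitted 4 mouse coefficients and a channel term per probe with lmFit and eBayes, tested on simulated arrays. Tests are two-sided, and p-values were adjusted over all probes within each question. For W5, orientation means of each mouse were averaged and the 4 means tested against 0. Same-numbered arrays correlated at 0.105 to 0.384 after mouse means were removed and at -0.265 to 0.188 after the channel term was removed too. They share their orientation, which the fit holds. These correlations do not show whether the numbers mark anything beyond orientation.

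A gene with several single-symbol probes was represented by the probe with values on most arrays, then the first identifier. All 64 genes matched the GRCm38.p6 gene table by identifier and 0 symbols changed. Named genes were those called, the 2 largest ranges of each family, a list of known kidney and mitochondrial carriers, genes with disagreeing probes and called genes of the related lists; the remaining genes named were chosen after their values were seen, as were the motifs. Members and lists were chosen with earlier results of these data known. Alternatives changed the channel term, array weights and scaling, the filter, eBayes, the probe set, and the arrays or mice included.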

Additional observations from a re-analysis of the deposited data

Results flagged for a closer look

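Of 134 sets of 4 values tested (the 4 arrays of a mouse, or the 4 mouse means, for the 29 carriers chosen by the naming rule), 11 held a value whose gap to the nearest other exceeded Dixon's critical share of the whole range; chance does so in about 1 in 20 sets. None belonged to the 4 called carriers. In the mitochondrial group these were Slc25a1 on array 2 of W4 (0.34, others -0.43 to -0.31), Slc25a10 on array 1 of W1 (-0.47, others -0.15 to -0.09), Slc25a11 on array 1 of W4 (-0.16, others 0.18 to 0.24), Slc25a28 on array 1 of W3 (-0.13, others 0.17 to 0.21) and Slc25a5 on array 1 of W2 (-0.29, others -0.03 to 0.01).

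In the amino acid and peptide group they were Slc36a1 on array 1 of W2 (-0.49, others 0.18 to 0.27), Slc36a2 on array 1 of W2 (0.0206, others -0.18 to -0.14) and Slc38a4 on array 3 of W3 (-0.21, others 0.14 to 0.20). The same held for Slc3a2 on array 2 of W4 (0.25, others 0.08 to 0.10), Slc6a17 on array 4 of W3 (0.63, others 0.07 to 0.16) and Slc7a5 on array 1 of W3 (-0.61, others -0.01 to 0.07).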

How the results depend on the processing

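Slc7a7 stayed called in all 28 alternative settings (adjusted p up to 0.0426), Slc25a25 lost its call in 1, and Slc38a3 and Slc6a18 in 2 each. Without mouse W4, 1 amino acid and peptide carrier and 0 mitochondrial carriers were called in the 5-kidney test. The mitochondrial count was 2, with Slc25a13 added, under array weights, a common median absolute deviation, values on all 4 arrays of each mouse, 1 probe per named gene, and without array 1 of W3. Array weights also called Slc25a13 among W1 to W4 (1 mitochondrial carrier). For W5 against its littermates, 1 amino acid and peptide carrier was called without mouse W3, and 3 with 1 mitochondrial carrier when the 16 single arrays were fitted with mouse as random block.

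Over all probes, the 5-kidney count of 629 was 403 without the channel term, 378 without mouse W1 and 335 without mouse W2; the named genes, 336, were 215, 207 and 200. The count among W1 to W4, 110, was 62 without the channel term, 240 with array weights, and 54, 53, 49 and 70 without W1, W2, W3 and W4. The W5 count, 45, was 69 with a common median absolute deviation, 21 with values on at least 2 arrays of each mouse, 126 with all 4, 71 with robust eBayes, 27 and 16 without mouse W1 and W2, and 470 with the random block (fitted correlation 0.0436). Leaving out 1 array gave 457 to 671, 72 (without array 2 of W3) to 125, and 27 (without array 2 or 3 of W4) to 59 probes, 258 to 355 named genes, 2 to 3 amino acid and peptide and 1 to 2 mitochondrial carriers, and 0 carriers in the other tests. With the array number as a replicate block in place of the channel term, 591, 97 and 49 probes were called, with 3 and 1 carriers, and no call of a carrier changed. The cause of these shifts was not tested.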

Other observations

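The 10 carriers without a tested probe had these array ratios, with no test. Slc38a1, a glutamine carrier, had no value on any array. Slc38a2, the amino acid-regulated system A carrier, had 2 probes, with 9 and 10 arrays and medians of 0.13 and 0.37. Slc6a20a had 11 arrays (-0.44 to 1.16), the creatine carrier Slc6a8 11 (-0.23 to 0.45), Slc6a19os 12 (-0.35 to 0.65), the serotonin carrier Slc6a4 13 (-0.53 to 0.92) and the proline carrier Slc6a7 8 (-0.73 to 0.30). The cationic amino acid carrier Slc7a1 had 9 arrays (-0.34 to 0.44), the neutral amino acid exchanger Slc1a5 5 (-0.19 to 0.26) and the mitochondrial iron carrier Slc25a37 14 (-0.25 to 0.41). With values on 2 arrays of each mouse accepted, 6 of these genes could be tested, and Slc6a20a had the smallest adjusted p, 0.508.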
